A study of Mus musculus with 16 samples.

Results

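The interferon response genes followed here are a set of 36 genes that interferons switch on: cytosolic RNA sensors, transcription factors of the pathway, enzymes that tune it, antiviral effectors, antigen presentation genes and secreted proteins. Each gene was represented by the brightest probe set annotated to it, and 33 of the 36 were measured among 19938 genes. Isg15 and Gbp2 lay only on probe sets annotated to several genes, and Ifi44 had no probe set named for it, so these were not analysed here. Only Nlrc5 among the 33 had more than 1 probe set. Mx1 and Mx2 had mean levels below the lower quartile of all values (6.52 on the log2 scale), so their differences rest on dim signals.

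The 16 Affymetrix arrays each held total RNA of 1 brain sample from 2.5-month-old mice of mixed C57BL/6 and CD1 strain, without treatment per the labels. The olfactory bulb (OB, its core region) gave 3 conditional knockout (cKO) and 5 control samples, and the subependymal zone (SEZ), the stem cell niche along the lateral ventricle, gave 3 cKO and 5 control samples. The cKO genotype was GlastCreERT2/Brg1fl/fl and the control genotype GlastCreERT2/Brg1fl/+, so controls also carried the recombinase and a floxed copy of Brg1 (gene Smarca4), an ATPase of SWI/SNF chromatin remodelling complexes. SEZ control replicate 5 was labelled GlastCreERT2/Brg1+/+. The recombinase is expressed from the Glast (Slc1a3) locus, which is active in astrocytes and neural stem cells, so other cells of these tissues keep Brg1 unless they descend from recombined cells. The sources used here do not state the time of induction, and the labels give sex as not determined.

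Type I interferons bind a cell surface receptor whose kinases phosphorylate Stat2. Stat2 acts with Irf9 in a complex that binds interferon-stimulated response elements in the promoters of target genes. In brain, microglia, astrocytes and neurons all respond to interferon, and a low tonic level of signalling keeps target genes expressed without infection. Interferon gamma uses a separate receptor and is a strong inducer of antigen presentation genes.

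Promoter letters are shown because some members hold the response element of the pathway there. The members were chosen as genes that interferons switch on, so a share above that of all genes is no separate finding. RefSeq windows (GRCm38.p6) from 250 bases before to 50 after the gene start were present for 25 of the 33 members. The core of an interferon-stimulated response element was searched on both strands as GAAA, any 2 bases and GAAA again (its reverse complement being TTTC, any 2 bases and TTTC), and overlapping matches were counted. It was present in 11 of the 25 windows (44%), against 3.99% of 27025 genes with such a window. Before the start it was present in 8 members (32%), against 3.46% of all genes. In Ddx58, Ifih1 and Eif2ak2 the match lay only after the start, and 14 members had no match. Usp18, Parp14, Mx1, Mx2, Oas2, Rtp4, Tap2 and Nlrc5 are named only. The 8 stretches with a match before the start follow, each written along the gene's own strand, with capitals marking the match or overlapping matches.
Stat2: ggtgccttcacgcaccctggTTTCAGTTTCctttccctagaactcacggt
Ifit1: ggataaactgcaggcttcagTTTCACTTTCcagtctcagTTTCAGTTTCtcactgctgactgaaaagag
Ifit3: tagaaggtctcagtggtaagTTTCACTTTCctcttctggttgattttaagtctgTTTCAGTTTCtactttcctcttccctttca
Rsad2: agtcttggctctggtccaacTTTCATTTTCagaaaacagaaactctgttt
Bst2: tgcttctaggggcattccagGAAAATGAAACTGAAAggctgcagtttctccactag
Gbp3: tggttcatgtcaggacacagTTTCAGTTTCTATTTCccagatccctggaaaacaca
B2m: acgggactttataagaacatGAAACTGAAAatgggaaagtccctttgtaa
Cxcl10: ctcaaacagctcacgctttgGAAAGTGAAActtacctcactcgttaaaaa

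In GRCm38.p6 these stretches lie at chr10:128270256-128270305 (Stat2, plus strand), chr19:34640765-34640833 (Ifit1, plus strand), chr19:34583353-34583436 (Ifit3, plus strand), chr12:26456543-26456592 (Rsad2, minus strand), chr8:71537567-71537622 (Bst2, minus strand), chr3:142559979-142560034 (Gbp3, plus strand), chr2:122147528-122147577 (B2m, plus strand) and chr5:92349073-92349122 (Cxcl10, minus strand). All are upstream of the annotated gene start. Ifit1 and Ifit3 each held 2 separate matches, beginning 104 and 85 bases before the start in Ifit1 and 156 and 122 bases before it in Ifit3. The match of Gbp3 began nearest to its start, at 45 bases, and that of Stat2 farthest, at 222 bases.

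Some arrays stood apart in ways that the groups do not explain. SEZ control replicates 2 and 4 had high Slc17a7, a marker of cortical excitatory neurons, at 10.58 and 11.06, against 7.84 to 8.98 on the other 6 SEZ arrays. In cKO replicate 1 the Xist level was 6.08 in OB and 12.40 in SEZ, whereas sex-linked genes of the other same-numbered samples matched. Xist was high (11.82 to 12.58) in SEZ cKO replicates 1 and 2, OB cKO replicate 2 and control replicates 1 and 4 of both tissues. Elsewhere it lay between 5.72 and 6.80, so every group mixed arrays of high and low Xist. Sex was not in the model, and its part in the spread was not tested. In cKO replicate 3 the Slc1a3 level was 8.85 in OB and 8.16 in SEZ, below all other arrays. Smarca4 lay between 10.97 and 11.09 in OB cKO and 10.95 and 11.06 in OB control samples, and between 10.62 and 10.77 in SEZ cKO and 10.66 and 10.78 in SEZ control samples. That probe set was not resolved by exon, so it checks nothing about the deleted part. Array medians ran from 7.45 to 7.65, and the number of arrays limits the precision.

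The interferon response genes spread widely between the samples of one group. The pooled within-group SD (12 residual degrees of freedom) had a median of 0.28 over the 33 members, against 0.14 over all genes. Among the members, 13 exceeded the 95th percentile of all genes (0.30), which 5% of all genes exceed by construction. The SD was above the all-gene median in 26 members and below it in 7. The highest were Oasl2 (0.84), Ifit1 (0.76), Ifit3 (0.62), Lgals3bp (0.60) and Usp18 (0.58). The members did not all vary alike. Samhd1 (0.10), Psmb8 and Psmb9 (0.12 each), Stat2, Bst2 and Tap2 (0.13 each) and, narrowly, Ifi35 (0.14) varied less than the median gene. No test was made of these counts. Without SEZ control replicates 2 and 4, the median SD of the members was 0.23 against 0.14 for all genes, and 12 members exceeded the 95th percentile.

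Oasl2, an oligoadenylate synthetase-like antiviral protein, varied most. In replicate order its log2 level was 8.84, 8.09 and 9.30 in OB cKO samples, against 9.83, 8.17, 8.77, 8.66 and 8.79 in OB controls. In SEZ it was 7.52, 9.09 and 9.39 in cKO samples, against 9.99, 7.46, 8.93, 9.94 and 9.21 in controls. The lowest SEZ cKO sample lay with the lowest SEZ control sample, and the remaining samples of both genotypes overlapped.

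Ifit1, whose protein binds viral RNA that lacks the host's cap methylation, measured 8.05, 7.67 and 8.02 in OB cKO samples, against 8.62, 7.85, 7.84, 7.38 and 8.12 in OB controls. In SEZ it measured 7.38, 8.87 and 8.61 in cKO samples, against 8.47, 7.11, 7.77, 9.90 and 9.09 in controls. The 5 SEZ controls spanned 2.79 log2 units, a 6.91-fold range, and the 3 SEZ cKO samples fell inside it.

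Ifit3, a partner of Ifit1 in antiviral complexes, measured 8.90, 8.33 and 9.32 in OB cKO samples, against 9.56, 8.78, 8.40, 8.57 and 9.04 in OB controls. In SEZ it measured 8.47, 9.65 and 9.77 in cKO samples, against 9.68, 8.79, 8.73, 10.34 and 10.14 in controls. As with Ifit1, replicate 1 was low among SEZ cKO samples and replicates 4 and 5 were high among SEZ controls.

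Usp18, which removes the ubiquitin-like Isg15 from proteins and restrains interferon receptor signalling, measured 7.55, 7.31 and 8.0 in OB cKO samples, against 8.28, 7.45, 7.80, 7.60 and 7.75 in OB controls. In SEZ it measured 7.21, 8.33 and 8.28 in cKO samples, against 8.11, 7.14, 7.59, 9.19 and 8.56 in controls. The SEZ controls spanned a 4.14-fold range, with the lowest value in replicate 2 and the highest in replicate 4.

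Lgals3bp, a secreted glycoprotein that binds galectins, measured 10.55, 9.60 and 10.38 in OB cKO samples, against 10.81, 9.66, 9.92, 9.92 and 9.84 in OB controls. Its SEZ level was 8.94, 9.72 and 10.32 in cKO samples, against 10.34, 8.49, 9.96, 9.97 and 9.78 in controls. The highest SEZ control for Lgals3bp was replicate 1, as for Oasl2 (9.99, with replicate 4 at 9.94), whereas for Ifit1, Ifit3 and Usp18 it was replicate 4.

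**Figure D1:**
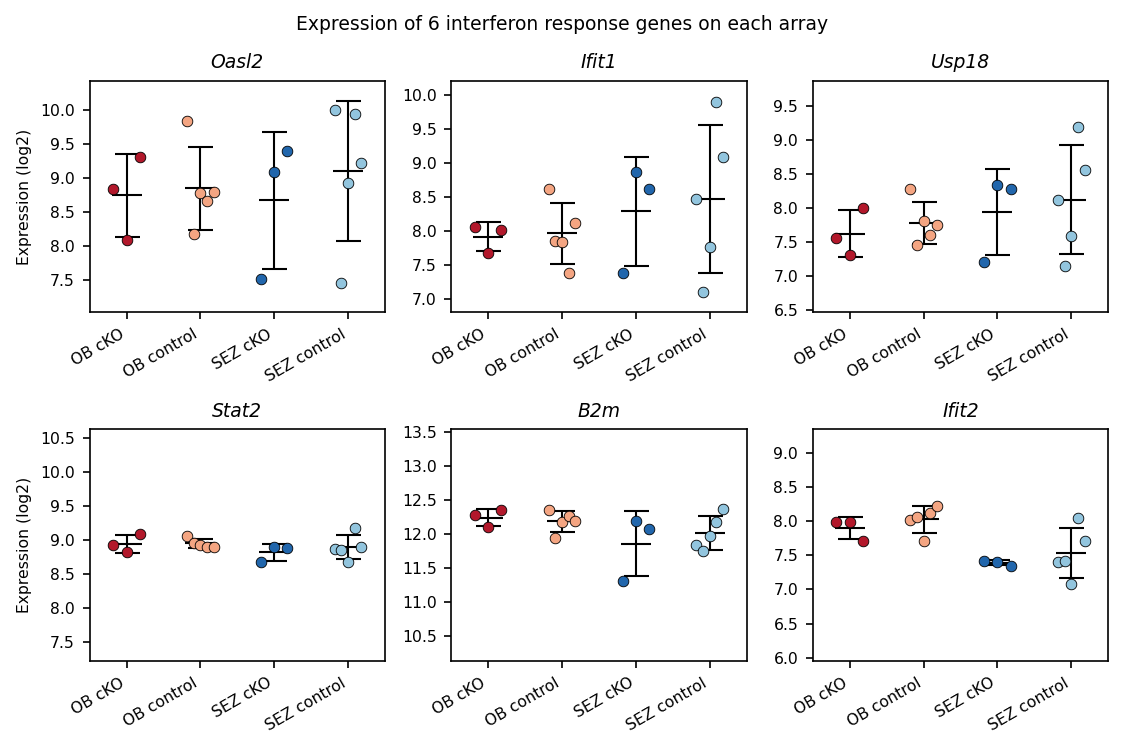
Log2 expression (vertical axis, each panel spanning the same number of log2 units) of Oasl2, Ifit1, Usp18, Stat2, B2m and Ifit2 on every array, with points in replicate order from left to right within a group and bars at the mean ± SD (n = 3 cKO and n = 5 controls per tissue). Oasl2, Ifit1 and Usp18 spread widely within groups (pooled SD 0.84, 0.76 and 0.58) and their genotypes overlap, whereas Stat2 spread little (0.13).

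Among the transcription factors of the pathway, Stat2 spread less than its partner Irf9 and than Irf7. Stat2 measured 8.93, 8.82 and 9.08 in OB cKO samples, against 9.06, 8.96, 8.92, 8.90 and 8.90 in OB controls, and 8.67, 8.89 and 8.88 in SEZ cKO samples, against 8.87, 8.85, 8.68, 9.18 and 8.90 in SEZ controls. Irf9, the DNA-binding partner, measured 8.75, 8.21 and 8.88 in OB cKO samples, against 9.20, 8.28, 8.54, 8.52 and 8.62 in OB controls. In SEZ Irf9 measured 8.17, 8.50 and 8.91 in cKO samples, against 8.89, 7.94, 8.62, 9.08 and 8.70 in controls. The pooled SD was 0.13 for Stat2, 0.38 for Irf9 and 0.48 for Irf7, the factor that amplifies interferon production. Irf7 ranged from 7.38 to 7.84 in OB cKO and 7.39 to 8.01 in OB control samples, and from 7.08 to 8.24 in SEZ cKO and 7.33 to 9.05 in SEZ control samples.

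Among the sensors, Ddx58, which encodes RIG-I, a helicase that recognises viral RNA ends, measured 8.31, 8.11 and 8.08 in OB cKO samples, against 8.50, 8.24, 7.92, 8.15 and 8.42 in OB controls. In SEZ it measured 7.99, 8.40 and 8.38 in cKO samples, against 8.28, 8.08, 7.97, 9.07 and 8.67 in controls. Ifih1 (MDA5, a sensor of long double-stranded RNA) and Eif2ak2 (PKR, a kinase that stops translation on double-stranded RNA) had within-group SDs of 0.28 and 0.29. All 3 sensors were highest in SEZ control replicate 4, where they averaged 0.67 above their group mean.

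The antigen presentation genes were the steadiest of the larger roles, with a median SD of 0.16 over 6 members. B2m, the light chain of class I histocompatibility molecules, measured 12.28, 12.11 and 12.35 in OB cKO samples, against 12.36, 11.94, 12.18, 12.27 and 12.20 in OB controls. Its SEZ level was 11.32, 12.19 and 12.08 in cKO samples, against 11.85, 11.75, 11.97, 12.18 and 12.37 in controls. B2m thus had its lowest value of all arrays in SEZ cKO replicate 1. Psmb8 and Psmb9, subunits of the immunoproteasome, and Tap1 and Tap2, the peptide transporter, had SDs of 0.12, 0.12, 0.18 and 0.13. On SEZ control replicate 4 the 6 genes averaged 0.03 above their group mean, where the 13 effectors averaged 0.47 above theirs.

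Cxcl10, a chemokine that attracts T cells, measured 6.82, 6.52 and 7.33 in OB cKO samples, against 7.44, 6.56, 6.76, 6.64 and 6.47 in OB controls. Its SEZ level was 6.55, 6.66 and 7.42 in cKO samples, against 7.20, 6.16, 6.69, 7.45 and 6.57 in controls. Its within-group SD was 0.45, and replicate 3 was the highest cKO sample in both tissues. Among the remaining effectors and regulators, Rtp4, Xaf1 and Mx2 exceeded the 95th percentile of all genes (0.30), and Ifi35 lay just below the all-gene median. The SDs of these remaining genes differed widely. They were 0.46 for Rtp4 (an interferon-induced transporter protein), 0.42 for Xaf1 (which antagonises an apoptosis inhibitor), 0.34 for Mx2 and 0.21 for Mx1 (dynamin-like antiviral proteins), 0.28 for Rsad2 (viperin, which makes a chain-terminating nucleotide), 0.25 for Ifit2 (another Ifit family member), 0.20 for Oas2 (an oligoadenylate synthetase) and 0.14 for Ifi35 (an interferon-induced leucine zipper protein). Bst2 (tetherin, which holds virions at the cell surface) and Samhd1 (which depletes nucleotide pools) have been given above. Gbp3, a guanylate-binding GTPase, had an SD of 0.35. Among regulators the SD was 0.29 for Herc6 (the mouse ligase for Isg15), 0.27 for Dtx3l (a ubiquitin ligase), 0.24 for Parp14 (an ADP-ribosyltransferase) and 0.21 for Trim25 (a ubiquitin ligase that acts on RIG-I signalling).

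The members deviated from their group means together. Over the 16 arrays the median Pearson correlation between the deviations of 2 members was 0.52 (528 pairs, 483 of them above 0). Set against the mean deviation of the other members, 15 members had a correlation of at least 0.8, 10 lay between 0.5 and 0.8, and 8 lay below 0.5. Of 19905 genes outside the list, 0.0904% reached 0.8 with the members' mean deviation and 1.76% reached 0.5. All these points share arrays and RNA samples, and members are not independent of each other, so the correlations are descriptions. The members' mean deviation had a correlation of 0.26 with the deviation of the array median.

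Usp18 followed the others most closely (r = 0.97, Spearman's rho = 0.93), followed by Irf7, Rtp4 (r = 0.96 each), Ifit3 (r = 0.94) and Ifit1 (r = 0.93). Without the 2 arrays of most extreme deviation, r was 0.95 for Usp18, 0.93 for Irf7, 0.94 for Rtp4 and Ifit3 and 0.87 for Ifit1. Stat2 took part in the shared movement despite its small SD (r = 0.85, rho = 0.91, and r = 0.88 without those 2 arrays). The 8 members below 0.5 were Samhd1 (0.48), Ifit2 (0.42), Psmb9 (0.42), Oas2 (0.38), Mx2 (0.37), Tap2 (0.36), Bst2 (0.27) and Nlrc5 (0.06). For Nlrc5, the transactivator of class I genes, the value depended on the probe set, since its 19 probe sets gave correlations from -0.06 to 0.76 and the brightest one was used. By the calculation above without the 2 arrays of most extreme deviation, 9 members had a correlation of at least 0.8. In a separate calculation with SEZ control replicates 2 and 4 left out, 10 members had such a correlation and the median between members was 0.46.

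**Figure D2:**
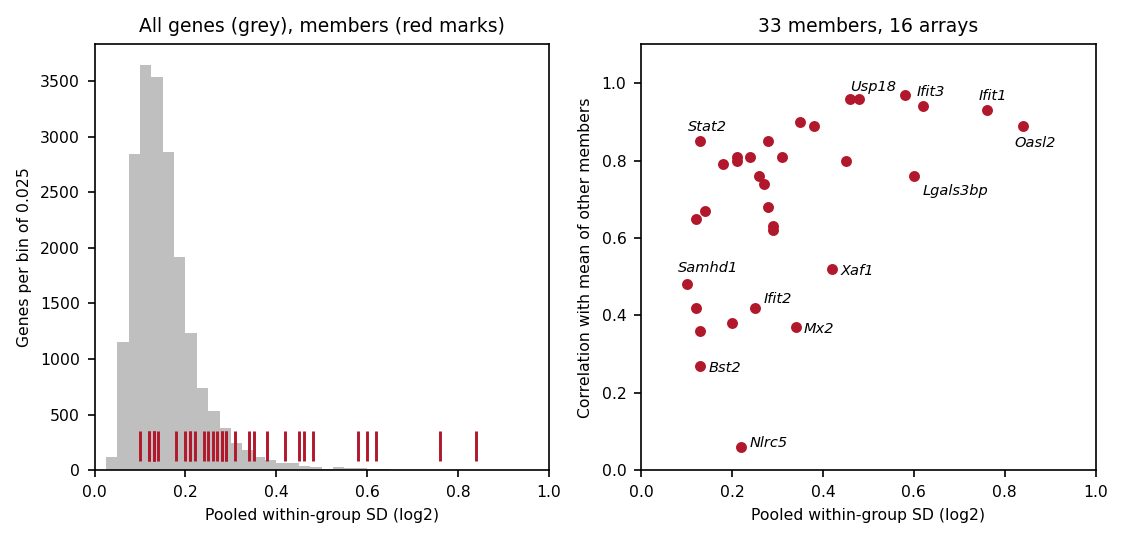
The left panel gives the number of genes (vertical axis) by pooled within-group SD in log2 units (horizontal axis, drawn to 1) for all 19938 genes in grey, with red marks at the 33 members. The right panel sets each member's SD (horizontal axis) against its correlation with the mean deviation of the other members over 16 arrays (vertical axis). Oasl2, Ifit1, Ifit3 and Usp18 combine a large SD with correlations of 0.89 to 0.97, and Nlrc5 has a correlation of 0.06.

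The shared movement had the following size on each array, as the mean deviation of the 33 members from their group means. In OB cKO replicates 1 to 3 it was 0.04, -0.20 and 0.16, and in OB control replicates 1 to 5 it was 0.29, -0.12, -0.09, -0.07 and -0.01. In SEZ cKO replicates 1 to 3 it was -0.33, 0.14 and 0.19, and in SEZ control replicates 1 to 5 it was 0.05, -0.40, -0.21, 0.43 and 0.12. The array with the highest mean deviation was SEZ control replicate 4, with 30 of 33 members above their group mean, and the lowest was SEZ control replicate 2, with 2 of 33 above. SEZ cKO replicate 1 had 3 of 33 above and OB control replicate 1 had 30 of 33 above. Because deviations are taken from each group's own mean, every group holds arrays on both sides of it by construction. Same-numbered samples of one genotype did not share the position in every case: replicate 4 of the controls stood at -0.07 in OB and 0.43 in SEZ, and replicate 1 of the controls at 0.29 in OB and 0.05 in SEZ.

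**Figure D3:**
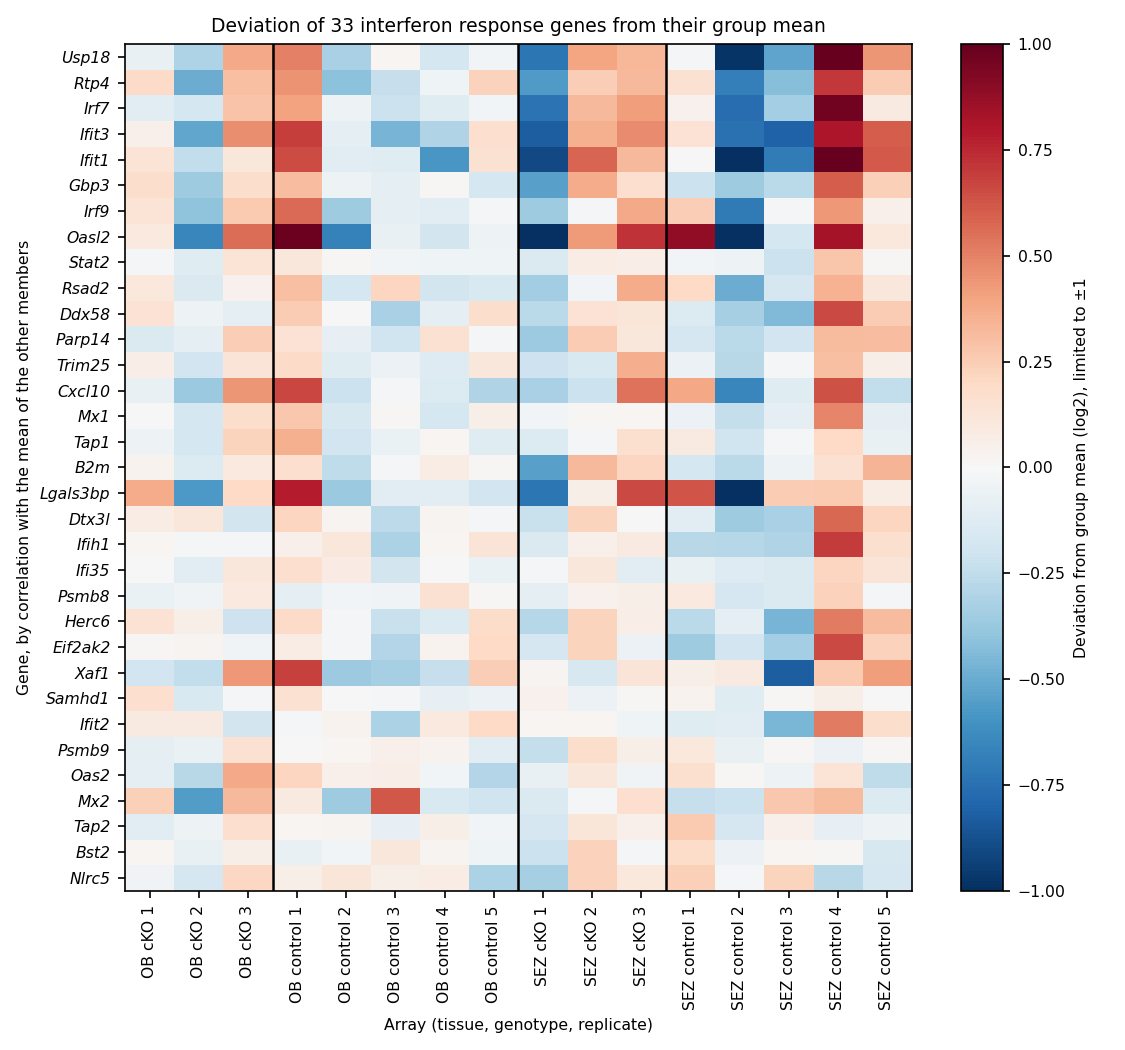
Each cell gives the deviation of a gene (rows, ordered from the highest to the lowest correlation with the other members) from its group mean on 1 array (columns, grouped by tissue and genotype with black lines between groups), in log2 units limited to ±1. SEZ control replicate 4 and OB control replicate 1 are high for 30 of 33 genes each, and SEZ control replicate 2 and SEZ cKO replicate 1 are low for most.

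Members with and without the promoter match were set side by side. The median within-group SD was 0.29 in the 11 members with a match and 0.26 in the 14 without, and the median correlation with the other members was 0.81 and 0.71 in these sets. Irf7, Oasl2, Irf9 and Lgals3bp had no match in the window, and Bst2, with 2 overlapping matches, had a correlation of 0.27.

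Genes outside the list whose deviations resembled the members' mean most closely over the 16 arrays were Trim30a (r = 0.96), Trim30d (0.93), Irgm1, Gbp7, Gm4951, Tor3a and Ddx60 (0.92 each), Isg20 (0.91), Parp9 (0.89) and Oas1b (0.88). Of these 10, 7 belong to a list of 50 other interferon targets, 39 of which were measured. The mean deviation of that list had a correlation of 0.94 with the members' mean deviation, and 0.90 without SEZ control replicates 2 and 4. A list of 11 ligands held interferons together with the interleukins Il15 and Il18, and its 9 measured genes had a correlation of -0.14. The correlation was -0.26 for 9 receptor and kinase genes and 0.29 for 7 other pathway factors. It was 0.44 for 14 sensors and adaptors and 0.12 for 8 brakes of the pathway. Without SEZ control replicates 2 and 4 these values were -0.05 for ligands, -0.50 for receptors and kinases, 0.05 for factors, 0.12 for sensors and adaptors and 0.21 for brakes. Ifnb1, the interferon beta gene, lay between 5.89 and 6.05 in OB cKO and 5.92 and 6.11 in OB control samples, and between 5.98 and 6.29 in SEZ cKO and 5.94 and 6.18 in SEZ control samples, all below the lower quartile of all values.

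Markers of cell types that the dissections could hold were set beside this movement. The correlation of a list's mean deviation with that of the members was -0.09 for microglia and macrophages (16 of 17 markers measured), 0.17 for lymphocytes and natural killer cells (10 of 11), -0.16 for neutrophils and blood (6 of 8), -0.06 for endothelial and mural cells (13 of 14), 0.16 for choroid plexus (7 of 8), -0.06 for ependymal cells (6 of 6) and -0.37 for astrocytes (8 of 8). It was 0.28 for cortical neurons (4 of 5), -0.20 for bulb neurons (6 of 6), -0.26 for neuroblasts (7 of 7) and 0.60 for striatal neurons (7 of 8). The striatal list ranged from 8.70 to 8.99 in OB cKO and 8.92 to 9.10 in OB control samples, and from 12.68 to 12.82 in SEZ cKO and 12.60 to 12.83 in SEZ control samples, and its part in the members' spread was not tested. The mean level of the microglial list ran from 8.38 to 8.69 in OB cKO and 8.47 to 8.80 in OB control samples, and from 8.80 to 8.96 in SEZ cKO and 8.75 to 9.11 in SEZ control samples. Among defining microglial genes, P2ry12 lay between 8.08 and 8.38 over all arrays and Cx3cr1 between 9.27 and 9.87. Aif1 had its lowest value in OB, 6.15, which lies below the lower quartile of all values (6.52), and ranged between 6.55 and 7.13 in SEZ. The 2 arrays with cortical markers had the lowest and the highest mean deviation of the interferon response genes from their group mean.

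The comparison of cKO with control asks whether interferon response genes depend on Brg1 in either tissue. No member differed between genotypes in OB or in SEZ by limma with Benjamini-Hochberg adjustment over all genes (threshold 0.05). In OB 0 of 33 members passed, where 0.0451% of all genes did, and in SEZ 0 of 33 passed, where 0% of all genes did. At an unadjusted p under 0.05, the count of members was 0 in both tissues, against 3.51% of all genes in OB and 2.47% in SEZ. In these bulk tissues, fewer cells of a type and less RNA per cell cannot be told apart. In no member did the cKO and control arrays separate. In OB, 1.57% of all genes had every cKO array below every control array and 0.958% had every one above, and in SEZ these shares were 1.05% and 0.943%.

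In SEZ the cKO minus control difference had a median of -0.13 over the members, against 0.00 over all genes, and 27 of 33 members were below 0 (48.0% of all genes were). Since members move together from array to array, this shared sign does not count as 27 separate observations. The median was 0.02 without SEZ cKO replicate 1, whose sex-linked genes did not match its OB partner. It was -0.02 without SEZ control replicate 4, -0.08 without SEZ control replicate 5 and -0.22 without SEZ control replicate 2. Without SEZ cKO replicate 3 it was -0.21, and with both arrays of high cortical markers left out it was -0.08. Averaged over the 33 members, the level was 7.85 ± 0.29 in SEZ cKO (SD, n = 3) and 7.97 ± 0.32 in SEZ control samples (SD, n = 5), a gap smaller than either SD.

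In OB the median difference was -0.04, against -0.01 over all genes, with 21 of 33 members below 0 (52.1% of all genes). It was 0.06 without OB cKO replicate 2, 0.04 without OB control replicate 1, -0.07 without OB control replicate 3 and -0.10 without OB cKO replicate 3. The mean level of the members was 7.87 ± 0.19 in OB cKO (SD, n = 3) and 7.89 ± 0.17 in OB control samples (SD, n = 5). The difference of the effects, SEZ effect minus OB effect, had 0 members past the threshold, with 0.00502% of all genes past it and 0 members at an unadjusted p under 0.05. Its median was -0.11 over the members, with 28 of 33 below 0, and 0.02 over all genes. It turned to 0.05 without SEZ cKO replicate 1 (8 of 33 below 0) and to 0.02 without SEZ control replicate 4. It was -0.20, -0.18 and -0.18 without SEZ control replicate 2, SEZ cKO replicate 3 and OB cKO replicate 2. It was -0.07, -0.07 and -0.01 without SEZ control replicate 5, OB cKO replicate 1 and OB cKO replicate 3.

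The largest differences in SEZ were those of Oasl2, Herc6 and Rtp4. For Oasl2 the difference was -0.44 (SE 0.53, 95% interval -1.56 to 0.67, limma adjusted p = 1). Herc6 measured 7.33, 7.83 and 7.68 in SEZ cKO samples, against 7.66, 7.83, 7.47, 8.45 and 8.25 in SEZ controls, a difference of -0.32 (SE 0.19, 95% interval -0.72 to 0.07, limma adjusted p = 1). In OB Herc6 measured 7.75, 7.67 and 7.40 in cKO samples, against 7.88, 7.67, 7.46, 7.55 and 7.87 in controls. Rtp4 measured 6.58, 7.40 and 7.47 in SEZ cKO samples, against 7.60, 6.76, 7.02, 8.16 and 7.70 in SEZ controls, a difference of -0.30 (SE 0.29, 95% interval -0.92 to 0.33). In each of the 3 genes SEZ cKO replicate 1 was the lowest cKO sample, and cKO samples lay within the range of the controls or overlapped it.

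The largest differences in OB were those of Mx2, Rtp4 and Nlrc5. Mx2 measured 6.78, 5.98 and 6.86 in OB cKO samples, against 6.38, 5.93, 6.91, 6.13 and 6.09 in OB controls, a difference of 0.26 (SE 0.22, 95% interval -0.21 to 0.72, limma adjusted p = 1). Rtp4 measured 7.18, 6.49 and 7.29 in OB cKO samples, against 7.60, 6.74, 6.92, 7.11 and 7.38 in OB controls, a difference of -0.16 (SE 0.29). The cKO samples of both genes overlapped the controls, and in both replicate 2 was the lowest cKO sample. Nlrc5 measured 10.30, 10.16 and 10.54 in OB cKO samples, against 10.23, 10.29, 10.23, 10.25 and 9.85 in OB controls, a difference of 0.16 (SE 0.15). In SEZ Nlrc5 measured 9.65, 10.21 and 10.08 in cKO samples, against 10.17, 9.91, 10.15, 9.65 and 9.76 in controls. Over its 19 probe sets the OB difference ran from -0.06 to 0.26.

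The intervals of the genotype differences were narrow for genes of small spread: the SEZ difference of Stat2 lay between -0.29 and 0.12, of Samhd1 between -0.23 and 0.10, of Psmb9 between -0.18 and 0.19 and of Bst2 between -0.12 and 0.27. That of B2m, whose SD was 0.26, lay between -0.52 and 0.20. For the variable genes they were wide, with -1.19 to 0.83 for Ifit1, -1.07 to 0.59 for Ifit3 and -0.95 to 0.60 for Usp18. In OB the intervals ran from -0.21 to 0.20 for Stat2, from -1.06 to 0.96 for Ifit1 and from -1.22 to 1.02 for Oasl2. By role, the SEZ medians were -0.17 for sensors, -0.12 for factors, -0.17 for regulators, -0.07 for effectors, -0.07 for antigen presentation genes and 0.01 for the 2 secreted proteins. Gbp3, the only GTPase measured, had a SEZ difference of -0.26.

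**Figure D4:**
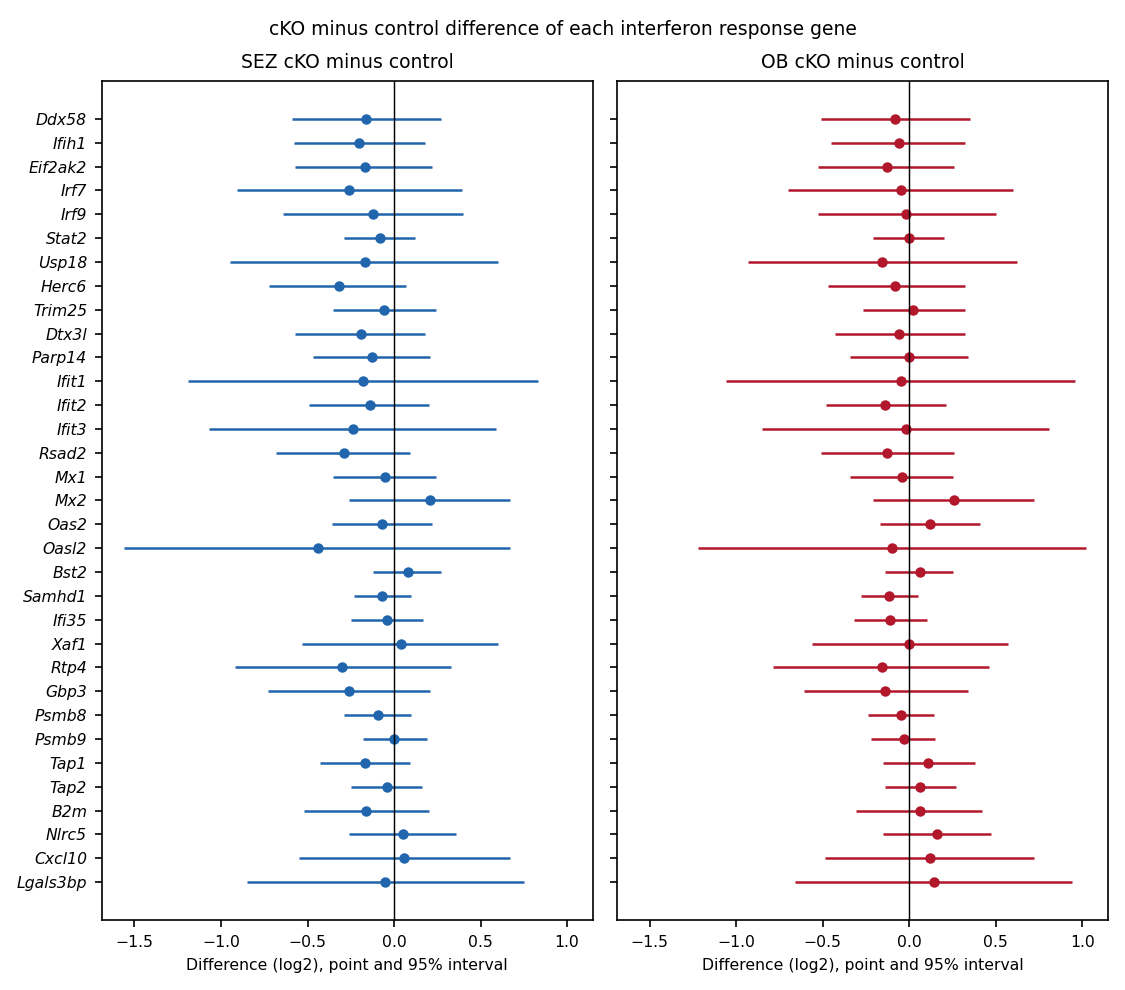
cKO minus control difference of each of the 33 members in log2 units (horizontal axis) with its 95% interval from limma, in SEZ (left, blue) and OB (right, red); 3 cKO and 5 control arrays per tissue. Every interval includes 0, and those of Oasl2, Ifit1, Ifit3, Lgals3bp and Usp18 are the widest.

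Upstream and downstream genes of the pathway showed the same absence of calls. Among 9 ligands, 9 receptor and kinase genes, 7 factors, 14 sensors and adaptors, 8 brakes and 39 other targets, 0 passed in OB and 0 in SEZ in either direction by limma. At an unadjusted p under 0.05 the counts in OB were 2 receptor and kinase genes and 1 other target, and in SEZ 1 factor, 1 brake and 1 other target, with 0 in the remaining lists. Over all genes the shares at that p were 3.51% in OB and 2.47% in SEZ. The receptor chains Ifnar2 (9.01 ± 0.10 in cKO, n = 3, and 9.25 ± 0.03 in controls, n = 5, difference -0.25, SE 0.07, limma adjusted p = 0.943) and Ifngr1 (9.23 ± 0.23 in cKO and 9.49 ± 0.06 in controls, difference -0.26, SE 0.09) were those 2 in OB. In SEZ the factor was Irf5, which acts in Toll-like receptor signalling, at 7.95 ± 0.04 in cKO and 7.67 ± 0.15 in control samples (difference 0.28, SE 0.08, limma adjusted p = 1). The brake was Usp25, a deubiquitinase, at 9.38 ± 0.24 in cKO and 9.60 ± 0.07 in controls (difference -0.22, SE 0.10). Ifitm3, which blocks virus entry, had the largest SEZ difference among the other targets (-0.39, SE 0.55), at 9.72 ± 0.75 in cKO and 10.11 ± 0.70 in controls.

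The comparison of OB with SEZ asks how the tissues differ in the level of these genes. In controls, Ifit2, Mx2 and Psmb9 were higher in OB and Trim25 was lower (limma, adjusted p under 0.05). These 3 of 33 members stand against 12.6% of all genes called higher in OB, and the 1 of 33 against 14.9% called lower, shares of the members that did not exceed the background. Their median difference was -0.09, against 0.00 over all genes. It was 0.00 without SEZ control replicate 4, -0.19 without SEZ control replicate 2 and -0.17 without OB control replicate 1. At an unadjusted p under 0.05 the count was 5 members, against 35.8% of all genes.

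Ifit2 measured 8.02, 8.07, 7.71, 8.13 and 8.23 in OB controls, against 7.41, 7.42, 7.08, 8.05 and 7.71 in SEZ controls. All but 1 of the OB values exceeded the second highest SEZ value, and SEZ replicate 4 lay among the OB samples. The difference was 0.50 (SE 0.14, limma adjusted p = 0.0134). In cKO mice Ifit2 measured 7.99, 7.99 and 7.71 in OB, against 7.42, 7.41 and 7.35 in SEZ, a difference of 0.50 (SE 0.18, limma adjusted p = 0.0576) with no overlap. Such separation was common: in cKO mice every OB array lay above every SEZ array in 2855 of 19938 genes, and below in 3784.

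Trim25 measured 7.23, 6.92, 6.98, 6.91 and 7.15 in OB controls, against 7.40, 7.19, 7.44, 7.76 and 7.52 in SEZ controls. Only SEZ replicate 2 lay within the OB range, and the difference was -0.43 (SE 0.12, limma adjusted p = 0.0127). In cKO mice it measured 7.13, 6.87 and 7.19 in OB, against 7.20, 7.25 and 7.77 in SEZ, a difference of -0.35 (SE 0.15, limma adjusted p = 0.13). These cKO values did not overlap, by a narrow gap.

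Mx2 measured 6.38, 5.93, 6.91, 6.13 and 6.09 in OB controls, against 5.43, 5.46, 5.94, 5.98 and 5.53 in SEZ controls, a difference of 0.62 (SE 0.19, limma adjusted p = 0.0212). In cKO mice it measured 6.78, 5.98 and 6.86 in OB, against 5.73, 5.85 and 6.04 in SEZ, a difference of 0.66 (SE 0.24, limma adjusted p = 0.0616). The groups overlapped slightly in both genotypes, and the SEZ values are near the low end of the array's scale. Psmb9 measured 8.43, 8.45, 8.48, 8.47 and 8.33 in OB controls, against 8.31, 8.14, 8.23, 8.15 and 8.22 in SEZ controls, with no overlap. In controls every OB array lay above every SEZ array in 1979 of 19938 genes, and below in 2380. For Psmb9 the tissue difference was as follows. Its difference was 0.22 (SE 0.08, limma adjusted p = 0.0395) in controls and 0.19 (SE 0.10, limma adjusted p = 0.206) in cKO mice, where it measured 8.31, 8.34 and 8.55 in OB, against 7.98, 8.39 and 8.28 in SEZ.

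Ifit2 and Trim25 passed in controls under all 21 alternative settings, whereas Mx2 passed in 17 of 21 and Psmb9 in 12 of 22. In controls without SEZ replicate 2 or without OB replicate 3, 2 members passed in place of 4. Among cKO mice 0 of 33 members passed, where 10% of all genes were called higher in OB and 13.1% lower, and 6 members had an unadjusted p under 0.05 (32.8% of all genes). Without OB cKO replicate 1 or without OB cKO replicate 2, 1 member passed. With centring on array medians or with array weights, 2 members passed. The cKO groups hold fewer arrays, and the differences of Ifit2, Trim25, Mx2 and Psmb9 between tissues did not pass a test between genotypes (SEZ effect minus OB effect, limma adjusted p = 1 for each).

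Of the larger tissue differences in controls, those of Ifit3 and Ifit1, genes of large spread, did not pass, whereas that of Mx2 (SD 0.34) did. Ifit3 had the largest absolute difference in controls at -0.67 (SE 0.34, 95% interval -1.38 to 0.05, limma adjusted p = 0.171), followed by Mx2 and by Ifit1 at -0.51 (SE 0.41, limma adjusted p = 0.44). Of the 16 measured microglial genes, 7 were called lower in OB in controls (14.9% of all genes were), and their part in these differences was not tested. The antigen presentation genes had a median tissue difference of 0.11 in controls and 0.26 in cKO mice, and the effectors -0.16 and -0.09.

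**Figure D5:**
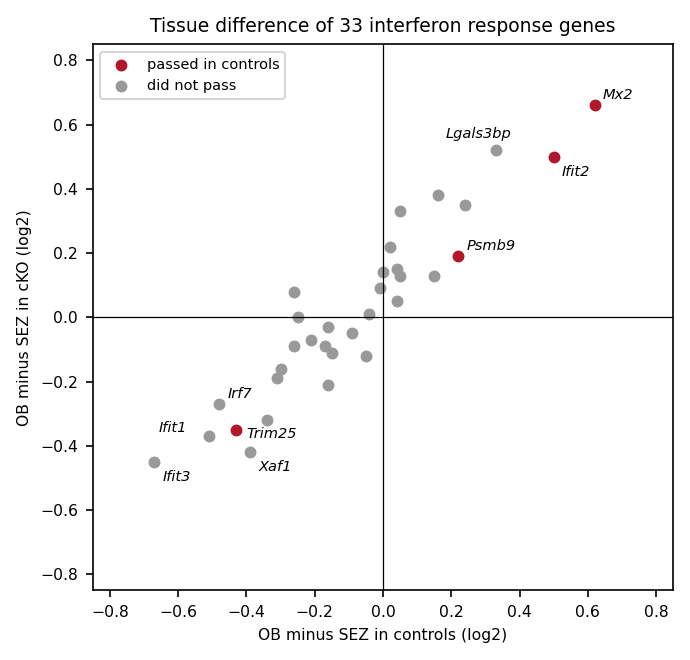
OB minus SEZ difference in log2 units of each of the 33 members in cKO mice (vertical axis) and in controls (horizontal axis), with the 4 genes that passed in controls in red. Mx2 and Ifit2 lie at the upper right (0.66 and 0.50 in cKO mice, 0.62 and 0.50 in controls) and Trim25 at the lower left (-0.35 and -0.43).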

How the data were processed

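Total RNA was labelled with biotin and hybridised to Affymetrix arrays. The authors deposited log2 expression values per probe set, made with RMA in Affymetrix Expression Console 1.2 per the submitters' processing notes. Their genome build is not given in the labels or notes used here. The platform annotation gave 1 symbol to 21789 of 35556 probe sets, several to 1621 and none to 12146. Those with 1 symbol covered 19938 genes, each taken by its brightest probe set.

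One linear model per gene was fitted to all 16 arrays (limma 3.58.1 under R 4.3.3, moderated by eBayes), with tissue and genotype forming 4 groups and nothing else in the design. Tests were two-sided, with Benjamini-Hochberg adjustment over 19938 genes and a threshold of 0.05. The labels call the samples biological replicates. Members and gene lists were chosen with earlier results of these data known. Every array's values were given for members with the largest differences or within-group SD, for 5 examples of roles, and, chosen after their values were seen, for Ifit2, Trim25 and Psmb9. Deviations are from group means. Alternatives were other scalings, array weights, a robust trend, a level filter, the mean of probe sets, single-tissue or single-genotype fits, replicate blocks and left-out arrays. Same-numbered OB and SEZ samples had correlated deviations in 7 of 8 pairs (0.174 to 0.566) and -0.061 in cKO replicate 1, so the numbers were not taken as pairs.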

Additional observations from a re-analysis of the deposited data

Results flagged for a closer look

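The 5 control arrays of each tissue were examined for each of the 33 members and for their mean, giving 68 sets of values. Of these, 6 held an array whose distance from the nearest other exceeded the limit for such a gap. Chance alone gives about 1 in 20 for independent sets. These sets share arrays and the members move together, so the count cannot be judged against that rate. In OB controls the mean over the 33 members was 8.18 in replicate 1, above the 7.77 to 7.88 of the other 4, and Lgals3bp was 10.81 in the same replicate. Also in OB controls, Ifih1 was low at 6.55 in replicate 3 and Nlrc5 was low at 9.85 in replicate 5. In SEZ controls Mx1 was high at 6.17 in replicate 4 and Xaf1 was low at 7.09 in replicate 3. Their causes were not tested.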

How the results depend on the processing

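In the cKO minus control contrasts 0 members passed in OB and in SEZ under each of 20 alternatives, and 0 in the difference of effects under each of 27. With the replicate number as a replicate block, the block also joined same-numbered cKO and control samples, which come from different mice. Under that block, whose numbers the labels do not explain, the median difference was 0.05 in OB (5 of 33 members below 0). In SEZ it was -0.03 (22 below 0). No call among the members changed under that block except in OB minus SEZ among cKO mice, where 2 members passed in place of 0. The count there was also 2 with a random block that joined same-numbered samples within a genotype only, with centring on array medians and with array weights. There 1 passed with the arrays of cKO mice alone and 1 without both SEZ controls of high cortical markers, and 0 to 1 when 1 array was left out. For OB minus SEZ in controls, 4 passed; 9 did with array weights, 1 when genes below the median level were removed (12 members left), and 2 to 4 when 1 array was left out. The causes were not tested. No call changed direction. Uncalled differences changed sign in at least 1 alternative for 26 members in OB and 23 in SEZ. The spread was recomputed without the arrays in doubt, a choice made after seeing the data: 14 members exceeded the 95th percentile of SD without cKO replicate 1 and 16 without cKO replicate 3, left out in both tissues, against 13 with all arrays. The number of arrays and the spread between samples limit what could be detected, most of all for Oasl2, Ifit1 and Ifit3.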
